A study of Mus musculus with 2 samples.

Results

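The 40 genes described here act in DNA replication and repair, or in chromatin, histone mRNA, cohesion and cell cycle steps beside it. They were chosen by gene symbol from the 31053 genes in the files. All 40 were found. DNA is copied in a fixed order of events: origins are licensed in G1 by loading of the MCM helicase, the helicase is fired in S phase, and polymerases, clamp and ligase then build the new strands. Transcription of many of these genes is driven by E2F factors at the G1/S transition, while the replication-dependent histone genes peak during S phase itself. Mismatch and uracil repair run behind the fork, and expression of most of these genes marks cells in cycle.

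Both groups were GFP+ Lin- c-Kit+ spleen cells from AE9a leukemia recipients. AE9a is a truncated AML1/ETO fusion, expressed from a retrovirus, that gives a transplantable acute myeloid leukemia in mice. The transplanted leukemia cells were Usp18+/f and carried UBCER-Cre, a Cre recombinase expressed from a ubiquitin promoter and active only in the presence of tamoxifen, in both groups. After the recipients became sick, 1 group received oil (labelled Usp18+/f) and the other tamoxifen (labelled Usp18+/Δ), with the sort 3 days after injections began. The cells of 3 recipients were combined in each group before capture. Each group is thus 1 library, no replicate spread exists, no test was run, and every interval below covers counting error only. Tamoxifen and deletion of 1 Usp18 allele cannot be told apart in this design.

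The libraries held 7281 and 7833 barcodes with 63690481 and 65146263 UMIs (unique molecular identifiers, each standing for 1 captured RNA molecule), of which 6546 and 7073 cells were kept. The targeted gene went against its label: Usp18 mRNA was at 5.68 CPM (counts per 1000000 UMIs) from 330 UMIs where the label is Usp18+/f, and at 24.1 CPM from 1434 UMIs where it is Usp18+/Δ (log2 2.08, 95% interval 1.91 to 2.26). A 3′ tag need not lie in the deleted part, so this count does not check the deletion. Kit, a marker of the gate, averaged 99.6 CPM, while Ptprc averaged 0.2 CPM and Cd34 11.3 CPM. The summed neutrophil markers were 2 and 1340 UMIs, 1316 of them in 1 cell, and the libraries shared 11 of the kept barcodes. Log2 ratios between libraries have the value of the one labelled Usp18+/Δ as numerator, and pairs of values give the one labelled Usp18+/f first.

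Promoter windows, 250 bases before to 50 bases after the start, were at hand for 34 of the 40 genes (RefSeq, GRCm38.p6). An E2F motif, spelled TTTGGCGC, TTTCCCGC, TTTGCCGC or TTTCGCGC on either strand, was in 16 of these 34 (47.1%), in 5.79% of the 4766 genes with a window that averaged at least 20 CPM, and in 2.61% of all 27025 genes with a window. Among the genes that were higher in early S phase cells by the measure given below, 8 of 10 with a window held the motif (80.0%), against 8 of the 24 others (33.3%). One match of each of these 8 genes is shown, since they carry that difference, with 10 bases on each side, read on the strand of the gene, and with the motif in capitals.
Hells: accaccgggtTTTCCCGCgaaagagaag
Cdca7: gcgtcccggcGCGGGAAAgccggtggcc
Msh6: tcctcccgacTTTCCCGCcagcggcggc
Dtl: gtgacgtcagTTTGGCGCggagtttggc
Cdc6: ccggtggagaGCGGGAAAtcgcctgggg
Rfc3: cgtcgcacgcTTTCGCGCtcgcgggaaa
Cdt1: gaactaccttTTTGGCGCcatggcgcaa
Mcm6: attggacgggTTTGGCGCgaagtagctc

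Positions are those of the stretches shown, and distances are from the first base of the match to the RefSeq start. The Hells stretch lay at chr19:38930918-38930945 on the plus strand, with its match 62 bases before the start. The Cdca7 stretch lay at chr2:72476138-72476165 on the plus strand, with its match 71 bases before the start. The Dtl stretch was at chr1:191575535-191575562 on the minus strand, with its match 8 bases before the start. That of Cdc6 was at chr11:98908003-98908030, plus strand, match 138 bases before, and that of Mcm6 at chr1:128359735-128359762, minus strand, match 47 bases before. Those of Rfc3 (chr5:151651201-151651228, minus strand, match 10 bases before), Msh6 (chr17:87975055-87975082, plus strand) and Cdt1 (chr8:122568037-122568064, plus strand) completed the set. The matches of the last pair lay within the 50 bases after the start. The GENCODE starts differ for some genes, and the Hells, Cdc6 and Rfc3 matches lie after those. Mcm6 held 3 matches, of which 2 overlapped, and Rfc3 held 2. The other Rfc3 match lies at the end of the stretch shown for that gene, where it was left in lower case. Mcm2 and Ung had a window without the motif, and Mcm4 is named only. Ung, the gene with the largest early over histone class ratio of the set, is shown with the 120 bases before its RefSeq start (chr5:114130315-114130434, plus strand). Its GENCODE start lies within these bases. No letters are in capitals because none of the motifs searched was found.
Ung: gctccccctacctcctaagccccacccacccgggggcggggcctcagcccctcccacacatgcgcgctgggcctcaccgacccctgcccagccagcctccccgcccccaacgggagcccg

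The CCAAT motif was in 61.8% of the 34 windows and in 42.9% of those of expressed genes, and the letters TTTGAA, called CHR, in 11.8% and 14.6%. These motifs were added after the data were seen, and a match is a description of letters, not of binding. A divergent neighbour with a start within 1000 bases was annotated for 5 of 40 genes (12.5%), and for 12.5% of expressed protein-coding genes. The closest pair was Dtl and Ints7, a subunit of the Integrator complex, with 92 bases between the starts.

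Most of the genes were well covered. Levels ran from 18.7 CPM (Gins1) to 264 CPM (Mcm3) in the first library and from 16.2 to 278 CPM in the other, with medians of 86.2 and 84.3 CPM. Of the 40, 39 averaged at least 20 CPM over both libraries, and Gins1 did not. Summed over the set, 218737 and 221967 UMIs were counted, or 3767 and 3730 CPM. A level here is a count of 3′ tags, 1 per molecule, and was not divided by gene length.

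Among the licensing and firing genes, the 6 subunits of the MCM helicase were not equally abundant. Mcm3 had 264 and 278 CPM and Mcm6 223 and 220 CPM, while Mcm4 had 111 CPM in both libraries. Mcm5 (152 and 151 CPM), Mcm7 (142 and 140 CPM) and Mcm2 (126 and 125 CPM) lay between them. The loaders of the helicase also differed from each other, with Cdt1 at 108 and 107 CPM and Cdc6 at 36.0 and 35.8 CPM. Reads of Cdt1 may be shared with Gm20388, which is annotated over it on the same strand. Cdc45 (39.1 and 35.7 CPM), Gins2 (44.2 and 45.3 CPM) and Gins1 (18.7 and 16.2 CPM), which turn the loaded helicase into its active form, were low as well. Dtl, the substrate receptor of the ubiquitin ligase that destroys Cdt1 in S phase, had 108 and 101 CPM, and Fbxo5, an inhibitor of the anaphase-promoting complex, 69.8 and 64.3 CPM.

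At the fork, Pcna, the sliding clamp, had 101 and 97.4 CPM. Its loader was uneven: Rfc2 had 239 and 237 CPM and Rfc3 39.97 and 39.8 CPM, with Rfc1, Rfc4 and Rfc5 between them. The polymerases and their partners ranged from 31.9 and 31.7 CPM for Pole, the leading strand polymerase, to 131 and 125 CPM for Lig1, which seals Okazaki fragments. Rrm1 and Rrm2, the subunits of ribonucleotide reductase, had 140 and 148 CPM and 88.5 and 95.8 CPM, and Tyms, thymidylate synthase, 133 and 130 CPM. The repair genes were among the lowest: Msh6, which recognises mismatched bases, had 35.3 and 36.7 CPM, and Ung, the glycosylase that removes uracil from DNA, 25.3 and 24.6 CPM. Chromatin genes ran from Cdca7 (51.2 and 48.9 CPM) to Slbp (176 and 164 CPM), the protein that binds histone mRNA 3′ ends. Pcna and Tyms have annotated processed pseudogenes, so their levels are uncertain.

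**Figure D1:**
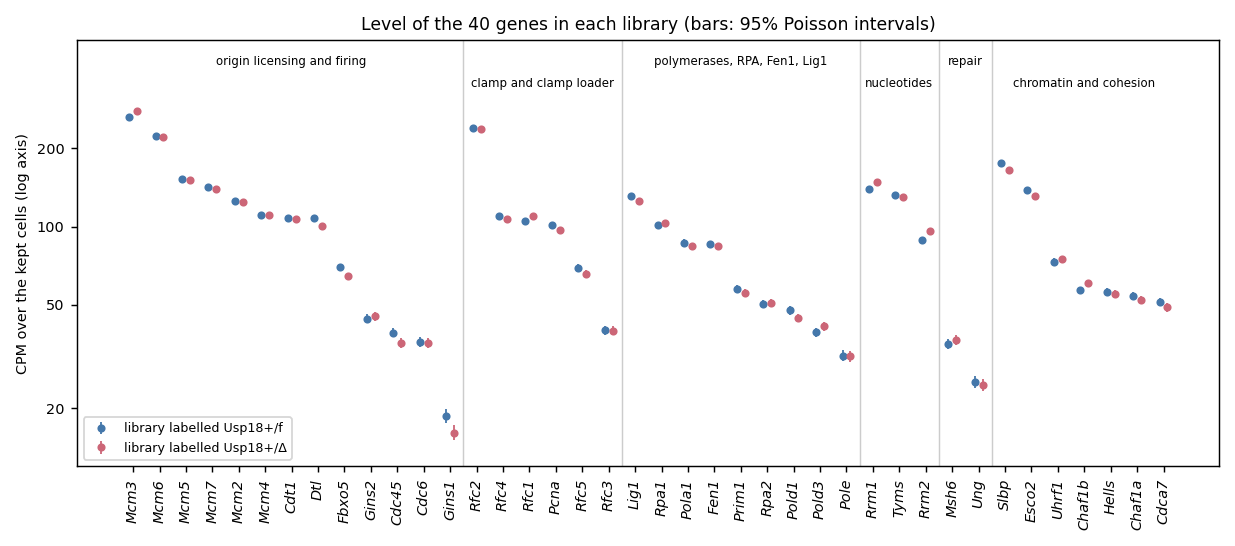
CPM of each gene over the kept cells (log axis), grouped by role, with the library labelled Usp18+/f in blue and the library labelled Usp18+/Δ in red. Bars are 95% Poisson intervals. The points of both libraries lie close together at every gene, from Gins1 (18.7 and 16.2 CPM) to Mcm3 (264 and 278 CPM).

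To compare cells of different depth, each cell was thinned at random to 3000 UMIs, which left 6090 and 6723 cells. After thinning, a UMI was found in 4.86% and 4.28% of cells for Gins1 and in 51.1% and 49.9% for Rfc2, the extremes of the set. Without thinning, the same shares were 14.6% and 12.02%, and 79.1% and 80.2%. No class of cells known to lack these transcripts was at hand to measure free RNA, so a share gives cells with a UMI and not cells that express the gene.

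Cells were then placed in 4 classes by genes outside the set. The early class was highest in 12 G1/S genes, and the histone class in 67 clustered histone genes, which mark later S phase. The G2/M class was highest in 54 G2 and mitotic genes, and the low class was above average in none. Scores came from summed UMIs, so abundant genes weighed most. In the early list these were Atad2, Dnmt1, Nasp and Tipin, with means of 231, 203, 193 and 133 CPM, while Ccne1, Ccne2 and E2f1 averaged under 20 CPM. The median thinned cell had 2 UMIs of the early list, 3 of the histone list and 23 of the G2/M list. These classes are ranges of a score and not cell types, and 2035 of the cells (15.9%) lay within 0.1 standard deviations of a class limit. The early class held 1684 cells (27.7%) and 1856 cells (27.6%), and the histone class 23.3% and 23.7%. Both shares were within counting error of each other between the libraries (log2 ratio intervals -0.083 to 0.079 and -0.061 to 0.12).

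Within S phase, the genes ranged from Ung, Hells, Cdca7 and Msh6, which were higher in the early class, to Fbxo5 and Esco2, which were higher in the histone class. Genes of 1 role could lie at both ends, as did Hells and Esco2 of the chromatin genes. The median log2 ratio of the early over the histone class was 0.31 and 0.27, against 0.0028 and 0.012 over all genes. In both libraries, 11 of 39 genes were higher in the early class by at least 0.5, as were 0.407% of all 5904 genes compared, and 1 of 39 was lower by at least 0.5, as were 1.8%. The members were 11 of the 24 genes past that limit among these 5904, which leave out the genes of the reference lists. Of the 40, 25 had their highest level in the early class in both libraries, 10 in the histone class, and the other 5 differed between the libraries. No such counts over all genes are at hand to set beside them. When the classes were instead taken as the top 20% of cells by each score, without cells in more than 1 of these, the medians were 0.071 and 0.013, and 5 genes were higher in the early class and 2 lower. No share of all genes is at hand for this rule, so these counts cannot be set against a background.

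Ung had the steepest profile. Its level in the early class was 57.2 and 55.1 CPM, in the histone class 16.9 and 16.1 CPM, and in the G2/M class 5.09 and 5.14 CPM. The early over histone log2 ratio was thus 1.76 (1.38 to 2.15) and 1.78 (1.41 to 2.16), and the early over G2/M ratio 3.49 and 3.42. Its level in the low class, 27.6 and 17.4 CPM, was above that in the G2/M class, so that Ung was not lowest in the cells with the fewest cycle transcripts.

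Hells, a remodeler needed for DNA methylation of repeats, and its partner Cdca7 followed. Hells had 99.8 and 91.8 CPM in the early class and 43.5 and 45.7 CPM in the histone class (log2 1.20 and 1.0). Cdca7 had 81.4 and 76.0 CPM and 32.7 and 42.6 CPM (log2 1.31, 1.03 to 1.60, and 0.83, 0.59 to 1.08). Msh6 had 57.6 and 55.7 CPM in the early class and 25.6 and 35.3 CPM in the histone class (log2 1.17, 0.85 to 1.499, and 0.66, 0.38 to 0.94). For Cdca7 and Msh6 the ratio was smaller in the library labelled Usp18+/Δ, where their histone class levels were higher.

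The helicase loaders were likewise early. Cdc6 had 60.0 and 63.9 CPM against 40.9 and 32.4 CPM (log2 0.55 and 0.98), and Cdt1 166 and 167 CPM against 110 and 102 CPM (log2 0.59 and 0.71). Dtl, which acts on Cdt1, had log2 ratios of 0.72 and 1.04. The MCM subunits themselves were early to unequal degrees: Mcm4 by 0.82 and 0.84, Mcm2 by 0.68 and 0.76, Mcm6 by 0.55 and 0.54, and Mcm7 by 0.18 and 0.17. Mcm3 (0.51 and 0.41) and Mcm5 (0.54 and 0.36) lay just outside the limit in 1 library, as did Rpa2, a subunit of the single-strand binding complex (0.39 and 0.51). Among the 5 clamp loader genes only Rfc3 passed 0.5, at 0.59 and 0.73, whereas Rfc1 had 0.24 and 0.26 and Rfc2, Rfc4 and Rfc5 had intervals that included 0 in both libraries. With doublets kept, the mean ratio of Rfc3 over both libraries was 0.38, under that limit.

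Of the strand synthesis genes, Pold1, of the lagging strand polymerase, had early over histone ratios of 0.34 (0.070 to 0.61) and 0.23 (-0.031 to 0.49), and its partner Pold3 0.12 (-0.16 to 0.41) and 0.45 (0.18 to 0.71), each with an interval above 0 in 1 library. The mean ratio of Pold1 turned to -0.14 with the top 20% of cells by each score. Pola1 and Prim1, which make the primers, had ratios of -0.013 and -0.072 and of 0.12 and 0.18, and Pole of -0.16 and 0.15. Fen1, the flap nuclease, had -0.087 and 0.15, and Lig1 -0.060 and -0.032, all with intervals that included 0. Pcna was somewhat higher in the early class (144 and 132 CPM against 116 and 112 CPM; log2 0.31 and 0.23), although its ratio turned to -0.050 with the top 20% of cells by each score.

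Esco2, the acetyltransferase that establishes cohesion between sister chromatids, ran opposite to Ung. It had 101 and 100 CPM in the early class and 209 and 203 CPM in the histone class (log2 -1.04, -1.20 to -0.89, and -1.02, -1.17 to -0.87), with 131 and 127 CPM in the G2/M class. Fbxo5 had 67.5 and 74.2 CPM against 108 and 104 CPM (log2 -0.68 and -0.49). Both were low in the low class, at 28.7 and 25.8 CPM and at 14.2 and 10.3 CPM. With thinning to 1500 UMIs the mean early over histone ratio of both libraries was -0.75 for Esco2 and -0.31 for Fbxo5.

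The 3 nucleotide genes had smaller ratios, which depended on the processing, as did those of some other genes. Rrm2 had 109 and 119 CPM in the early class and 134 and 143 CPM in the histone class (log2 -0.30, -0.47 to -0.13, and -0.27, -0.42 to -0.11). Rrm1 had log2 ratios of -0.27 and -0.29 and Tyms of -0.35 and -0.15. With thinning to 1500 UMIs the mean of both libraries was near 0 for all 3 (Rrm1 0.0022, Rrm2 -0.019, Tyms -0.052), and with all barcodes it was -0.068 for Rrm2 and -0.0998 for Tyms. Rrm1 stayed high in G2/M cells, at 134 and 161 CPM, where Rrm2 had 58.6 and 61.0 CPM, so that the 2 subunits of 1 enzyme differed in profile.

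**Figure D2:**
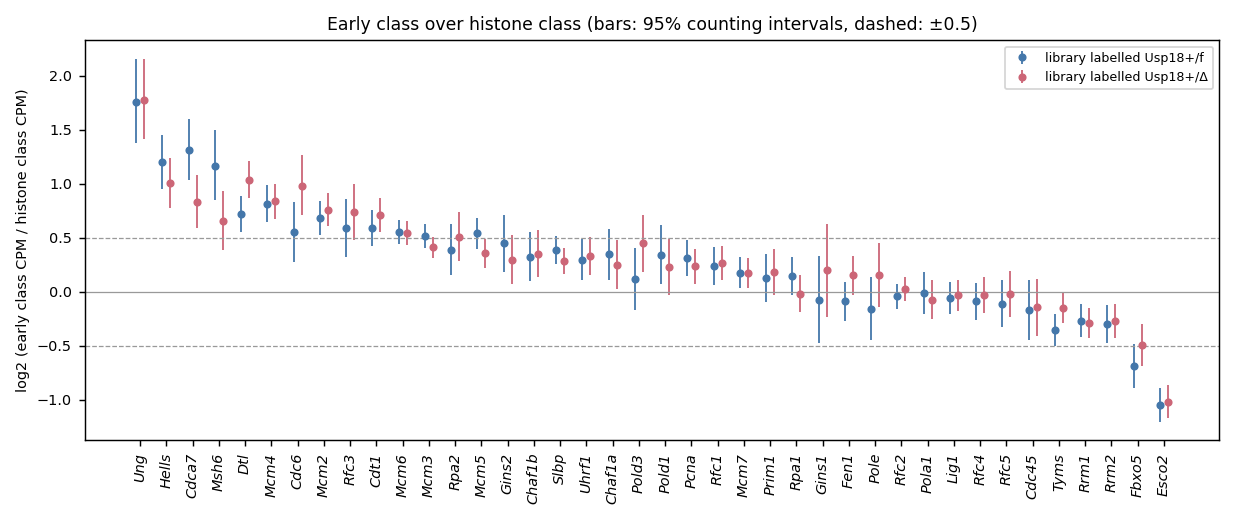
Log2 ratio of the CPM in the early class over that in the histone class for each gene, in the library labelled Usp18+/f (blue) and the library labelled Usp18+/Δ (red), with 95% counting intervals and dashed lines at 0.5 and -0.5. Ung (1.76 and 1.78) is at the top and Esco2 (-1.04 and -1.02) at the bottom in both libraries.

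Against the G2/M and low classes the set was more uniform in direction. The early class exceeded the G2/M class by at least 0.5 in both libraries for 28 of 39 genes (1.59% of all genes), and the low class for 37 of 39 (10.3% of all genes). The exceptions against the low class were Rfc2, with 266 and 260 CPM in the early class and 245 and 224 CPM in the low class, and Rpa1, the large single-strand binding subunit (119 and 110 CPM, and 96.4 and 80.7 CPM). By the mean of both libraries, the widest log2 ratios of early to low cells were those of Rrm2 (2.47 and 2.88), Cdc45 (2.74 and 2.41) and Fbxo5 (2.25 and 2.85). Cdc45 had 43.7 and 43.6 CPM in the early class and 6.55 and 8.24 CPM in the low class. The low class held the lowest level of 29 genes in both libraries, and the G2/M class that of 3, namely Ung, Chaf1b and Rfc2. These counts, too, have no counterpart over all genes. Chaf1b is a subunit of the histone chaperone CAF-1.

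**Figure D3:**
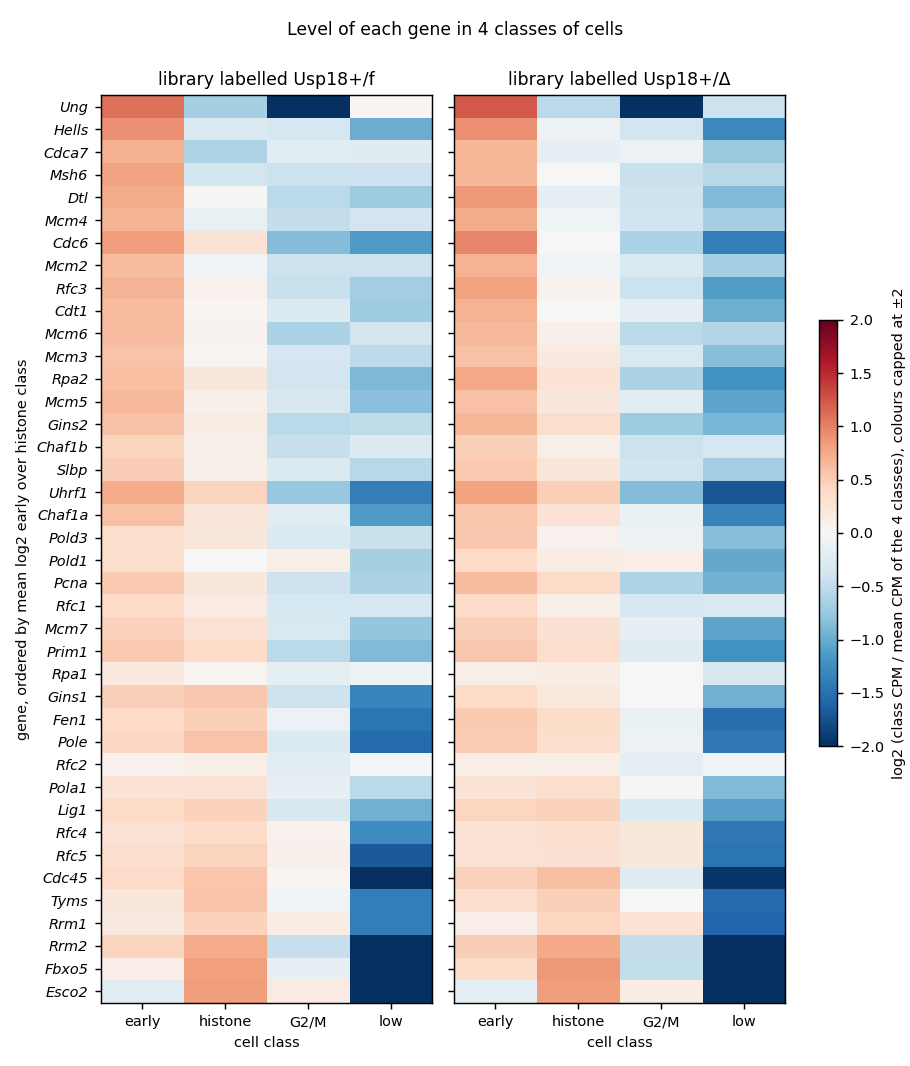
Level of each gene in the early, histone, G2/M and low classes of each library, as log2 of the class CPM over the mean of the 4 classes, with genes ordered by the early over histone ratio. Red is above and blue below the mean, and colours are capped at 2 on either side. The early column is reddest at the top (Ung, Hells) and the histone column at the bottom (Fbxo5, Esco2), while Rfc2 is nearly even across all 4 classes.

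Between the libraries, the set as a whole was nearly level. The summed ratio was log2 -0.014 (-0.023 to -0.0055) and the median over 39 genes -0.018, beside 0.00059 over the 5984 genes that averaged at least 20 CPM. None of the 39 genes was lower by at least 0.25, as were 1.65% of all genes, and none was higher by at least 0.25, as were 2.81%. The counting interval lay below 0 for 9 genes and above 0 for 5, against 24.2% and 23.8% of all genes. Gins1, under the 20 CPM limit, had the largest difference, -0.21 (-0.34 to -0.084).

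The lowest ratios among the 39 were those of Cdc45 (-0.13, -0.22 to -0.045), Fbxo5 (-0.12, -0.18 to -0.053), Dtl (-0.10), Pold1, the catalytic subunit of the lagging strand polymerase (-0.10), and Slbp (-0.097). The highest were those of Rrm2 (0.11, 0.060 to 0.17), Chaf1b (0.089), Rrm1 (0.083), Pold3, an accessory subunit of the same polymerase as Pold1 (0.078), and Mcm3 (0.073, 0.042 to 0.11). Both subunits of ribonucleotide reductase were thus among the 5 highest, with Tyms at -0.025. Mcm4 (-0.0023), Msh6 (0.057, -0.030 to 0.15) and Ung (-0.041, -0.15 to 0.064) had intervals that included 0, and Pcna was at -0.057 (-0.11 to -0.0041).

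Where only cells with at most 5% mitochondrial UMIs were kept, 1013 and 732 cells, the summed ratio was -0.30 and the median -0.33. In these cells 28 genes of the set were lower by at least 0.25, but no share of all genes past that limit is at hand for them. Of those cells, 643 and 569 had at least 3000 UMIs. Among the kept cells under 3000 UMIs, 456 and 350 in number, the summed level of the set was 3670 and 1677 CPM (log2 -1.13, -1.23 to -1.03). With only the cells of at least 3000 UMIs the summed ratio was -0.0043.

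The near-level sum stood beside other shares of cells. The G2/M class held 29.0% and 22.2% of cells (log2 ratio of shares -0.39, -0.47 to -0.30), and the low class 20.05% and 26.5% (0.40, 0.31 to 0.49). The summed level of the set was 4943 and 4921 CPM in the early class, 4209 and 4150 CPM in the histone class, 2938 and 2957 CPM in the G2/M class and 2189 and 1843 CPM in the low class. In the first 3 classes the libraries were level, with median log2 ratios of -0.011, -0.035 and 0.015. In the thinned cells as a whole the summed ratio was -0.061, and with both libraries given equal class shares it was -0.039.

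Within each of the early, histone and G2/M classes, at most 4 of the 39 genes were lower and at most 3 higher by at least 0.25. The single genes are given as descriptions. In the early class none of the 39 was lower by at least 0.25, as were 5.05% of all genes, and none was higher, as were 7.34%. Pold3, at 46.3 and 55.0 CPM, came closest (0.247, -0.0036 to 0.499). In the histone class 3 of 39 were lower (6.27% of all genes) and 3 higher (7.9%), and in the G2/M class 4 were lower (5.68%) and 3 higher (8.04%). Those of the histone class included Msh6, which was higher with 25.6 and 35.3 CPM (0.46, 0.11 to 0.82), and Cdca7, higher with 32.7 and 42.6 CPM (0.38), as well as Dtl, lower with 109 and 84.0 CPM (-0.38, -0.58 to -0.18). In the G2/M class Fbxo5 had 54.9 and 40.9 CPM (-0.42, -0.698 to -0.15), Pcna 74.5 and 56.3 CPM (-0.40, -0.64 to -0.17) and Rrm1 134 and 161 CPM (0.26, 0.11 to 0.42). Pcna thus had a higher CPM in the library labelled Usp18+/f both there and in the low class, with 395 and 252 UMIs behind the G2/M values.

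**Figure D4:**
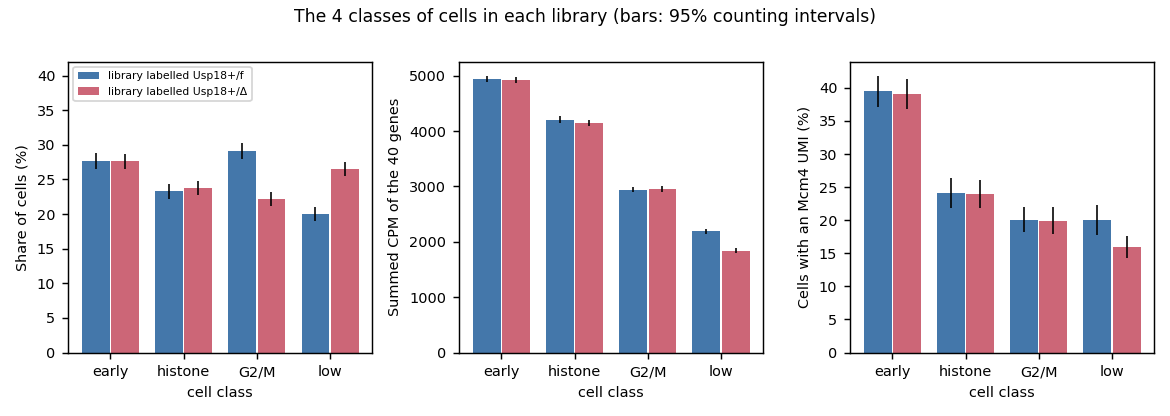
Share of cells, summed CPM of the 40 genes and share of cells with an Mcm4 UMI in the 4 classes of each library, with 95% counting intervals as bars. The shares of the G2/M class (29.0% and 22.2%) and of the low class (20.05% and 26.5%) differ between the libraries, and the summed level differs in the low class (2189 and 1843 CPM).

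In the low class, the set was lower in the library labelled Usp18+/Δ. The summed log2 ratio was -0.25 (-0.29 to -0.21) and the median -0.29, beside -0.017 over all genes. Of 39 genes, 25 were lower by at least 0.25 (12.1% of all genes) and 1 was higher (10.2% of all genes), with 17 intervals below 0 (12% of all genes). The 1 higher gene, Cdc45, rested on 24 and 44 UMIs, with an interval from -0.42 to 1.11.

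Ung had the lowest ratio there, with 27.6 and 17.4 CPM (-0.66, -1.09 to -0.24). Cdca7 had 42.3 and 28.5 CPM (-0.57, -0.90 to -0.24), Rfc3 24.8 and 17.0 CPM (-0.54) and Pcna 63.9 and 44.8 CPM (-0.51, -0.78 to -0.25). Genes of the licensing group were also lower: Mcm4 with 83.0 and 65.2 CPM (-0.35), Mcm6 with 173 and 139 CPM and Cdt1 with 65.2 and 52.4 CPM. Msh6, with 24.8 and 24.0 CPM, Rrm1, with 46.4 and 44.2 CPM, and Rfc1, with 78.4 and 85.0 CPM, had intervals that included 0.

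Other transcripts also differed between the libraries in this class. In the low class, the early reference genes had a log2 ratio of -0.21, the G2/M reference genes -0.18 and the clustered histone genes -0.13, although the class was set by their low levels. The summed erythroid markers were 6944 and 9321 CPM. Isg15, an interferon-stimulated gene, had 29.5 and 215 CPM, and Cdkn1a, an inhibitor of cyclin-dependent kinases, 18.6 and 85.6 CPM. Both were also higher in the library labelled Usp18+/Δ in the early, histone and G2/M classes, where the set was level. There Isg15 had 21.8 and 99.5, 18.3 and 120, and 15.8 and 86.7 CPM. Cdkn1a had 24.0 and 52.3, 26.6 and 75.4, and 23.2 and 61.5 CPM in the same order. The median depth of the class was 6690 and 6184 UMIs. Among low class cells with at most 4 erythroid marker UMIs the summed ratio of the set was -0.20 (-0.25 to -0.14), among those with more it was -0.32 (-0.38 to -0.25), and without the cells holding a neutrophil marker UMI it was -0.25. The part of Isg15, Cdkn1a and depth in the result was not tested.

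**Figure D5:**
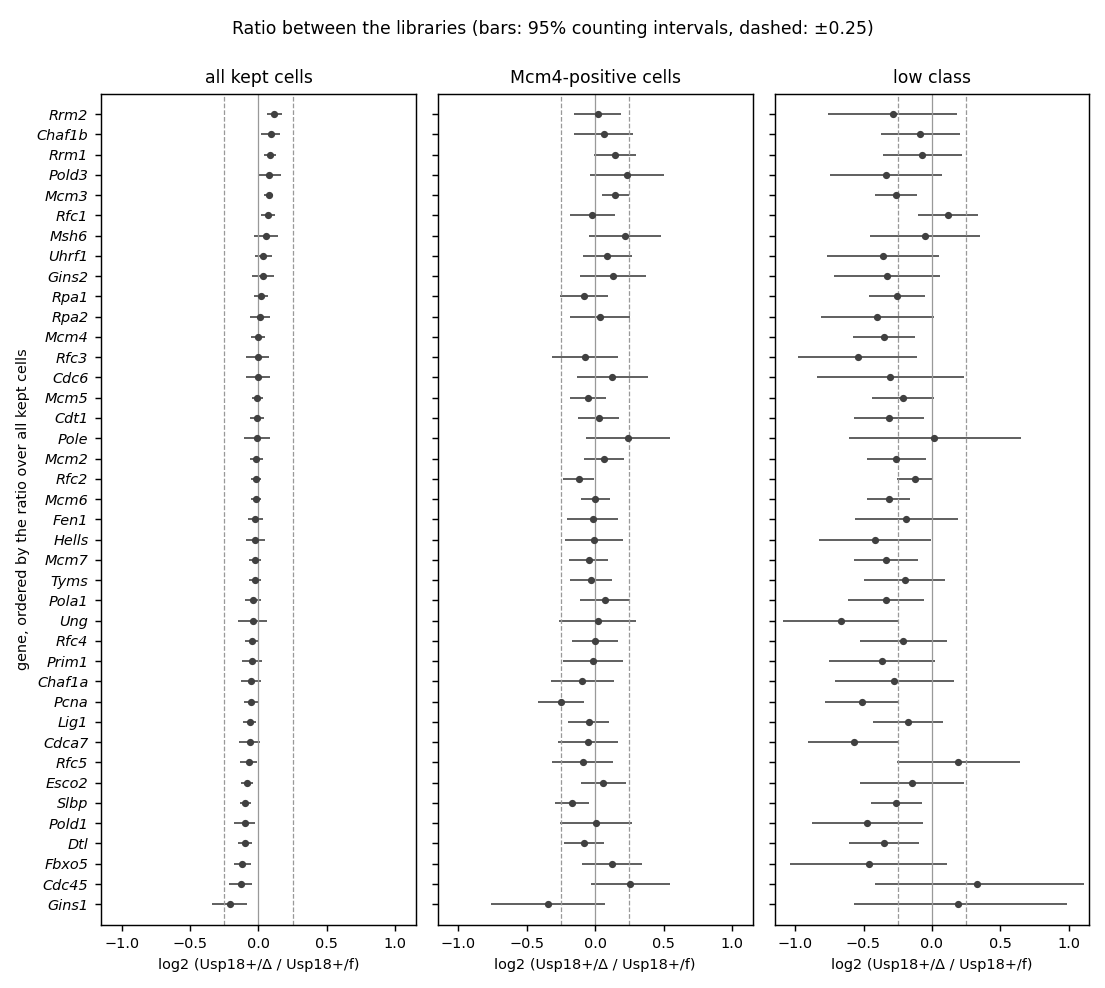
Log2 ratio between the libraries for each gene, with the one labelled Usp18+/Δ as numerator, in all kept cells, in cells with an Mcm4 UMI (Mcm4 itself left out) and in the low class, with 95% counting intervals and dashed lines at 0.25 and -0.25. In all kept cells the genes lie within the dashed lines, and in the low class most lie left of 0 (median -0.29).

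Cells with at least 1 Mcm4 UMI after thinning were 1605 of 6090 (26.4%, 25.3 to 27.5) and 1685 of 6723 (25.1%, 24.0 to 26.1). The log2 ratio of these shares was -0.072 (-0.16 to 0.013), an interval that included 0. Without thinning the shares were 52.6% and 50.2% (-0.069, -0.12 to -0.022), at median depths of 8575.5 and 8023 UMIs. With thinning to 1500 UMIs the ratio was -0.13 (-0.25 to -0.0046). Both intervals lay below 0, as did that with at most 5% mitochondrial UMIs (-0.63, -0.93 to -0.33). Intervals included 0 with another draw of the thinning (-0.029), all barcodes (-0.058), doublets kept (-0.051) and 2 or more Mcm4 UMIs (0.11). With Mcm5 in place of Mcm4 the ratio was -0.045 (-0.12 to 0.028). The early class held 41.4% and 43.0% of the Mcm4-positive cells, and 39.5% and 39.01% of early cells had an Mcm4 UMI, against 19.98% and 15.9% of low class cells.

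Mcm4-positive cells had more of nearly every other gene of the set. The summed level of the other 39 genes was higher at each step of the Mcm4 count of the cell, with 3224 CPM at 0 UMIs, 4296 CPM at 1 UMI and 4730 CPM at 2 or more, and in the tamoxifen group 3048, 4248 and 4849 CPM. The median ratio of Mcm4-positive over Mcm4-negative cells was log2 0.48 and 0.56, against 0.0025 and 0.0059 over all genes. In both libraries 16 of 38 genes were higher by at least 0.5, as were 0.485% of all genes.

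The order was led by genes of the early class. Ung had 43.0 and 43.5 CPM in Mcm4-positive cells and 21.0 and 18.5 CPM in the rest (log2 1.04 and 1.23). Cdc6 (0.74 and 1.01) and Uhrf1, which recruits the maintenance DNA methyltransferase (0.77 and 0.96), followed, although Uhrf1 was early over histone class by only 0.30 and 0.33. Msh6 had 45.7 and 53.2 CPM against 29.8 and 29.97 CPM. At the other end, Rfc2 (0.13 and 0.058), Rpa1 (0.14 and 0.086) and Esco2 (-0.017 and 0.22) differed least.

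Within Mcm4-positive cells the libraries were again level. The 39 other genes summed to 4382 and 4381 CPM, a log2 ratio with an interval from -0.027 to 0.027. Their median was 0.00081 (all 39 averaged at least 20 CPM in these cells, Gins1 included), with 2 genes lower by at least 0.25 (5.65% of all genes) and 1 higher (6.37%). Of the lower genes, Gins1 reached 20 CPM only in the library where it was higher. The lower genes were Pcna, with 131 and 110 CPM (-0.25, -0.42 to -0.084), and Gins1, with 22.8 and 18.002 CPM (-0.34, -0.76 to 0.070). The higher gene was Cdc45, with 38.4 and 45.9 CPM (0.26, -0.029 to 0.54). Another draw of the thinning gave 0 lower genes, and without thinning no gene passed 0.25 in either direction. Msh6 (0.22) and Pcna lay close to the limit on either side of 0, while Mcm3 was higher with 324 and 359 CPM (0.15, 0.048 to 0.25). In Mcm4-negative cells the other genes summed to 3224 and 3048 CPM (-0.081, -0.10 to -0.062).

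Other genes of the replication pathway and its regulators were taken from lists. Of 56 further replication, nucleotide and repair genes, 45 had a mean of at least 20 CPM. Their median log2 ratio between the libraries was -0.058, beside 0.00059 over all genes. Of the 45, 1 was lower by at least 0.25 (1.65% of all genes) and 1 was higher (2.81% of all genes). Rpa3, the smallest single-strand binding subunit, was lower (91.0 and 67.4 CPM; -0.43, -0.49 to -0.37), while Rpa1 and Rpa2 were at 0.020 and 0.0098. Samhd1, which breaks down deoxynucleotides, was higher (50.5 and 77.6 CPM; 0.62, 0.55 to 0.69).

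Of 20 cycle regulators, 18 passed the level filter, with a median of -0.037 between the libraries. Of the 18, 1 was lower by at least 0.25 (1.65% of all genes) and 1 was higher (2.81% of all genes). Cdkn1a was higher, with 21.9 and 62.9 CPM (1.52, 1.43 to 1.61), and Ccna2, the S and G2 phase cyclin, lower, with 101 and 82.3 CPM (-0.30, -0.36 to -0.25). The G2/M reference genes had a median of -0.14 over 52 genes, beside 0.00059 over all genes. Of the 52, 10 were lower by at least 0.25 (1.65% of all genes) and 2 higher (2.81% of all genes).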

How the data were processed

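The authors mapped 10x Genomics 3′ V3 libraries to mm10 with Cell Ranger 3.0.2, and deposited raw counts of UMIs for each gene and cell barcode. Cells needed 500 or more genes and no more than 10% mitochondrial UMIs. Scrublet (scanpy 1.11.5, expected rate 6%) marked 0.0436% and 0.0270% of cells by its automatic threshold, so the cells above the 95th percentile of its scores were removed instead, 340 and 333.

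Counts were summed per library or class and scaled to CPM. Intervals at 95% are exact Poisson for levels, exact conditional for ratios, Clopper-Pearson for shares and score intervals for ratios of shares. With 1 library per group no test was run. Genes averaging at least 20 CPM were counted against limits of 0.25 between libraries and 0.5 between classes. Shares, classes and Mcm4-positive cells used cells thinned to 3000 UMIs. In each cell the log of the summed UMIs of each of the 3 reference lists was standardised over both libraries, and the class was the highest score above 0.

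Values of single genes were given for Mcm4, Msh6, Ung and Pcna, the 5 lowest and 5 highest library ratios and the 3 highest and 3 lowest early over histone ratios; others named were chosen after their values were seen. The members and lists were chosen with earlier results of these data known. Annotation was GENCODE vM21, to which all 40 genes matched by identifier, while promoter windows used RefSeq starts. The functions were tested on simulated data. A planned search of protein sequences was not run. Alternatives varied the cell filter, doublets, scaling, averaging, thinning, thresholds and class rules.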

Additional observations from a re-analysis of the deposited data

How the results depend on the processing

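No paired analysis was possible because there was 1 library per group and no test was run. Values are log2 ratios between the libraries (Usp18+/Δ as numerator) unless said otherwise. Counts of genes under alternatives are of the set only, and no share of all genes is at hand beside them. With at most 5% mitochondrial UMIs, the summed ratio was -0.30, the median -0.33 with 28 genes lower, and that of Usp18 2.47. In the same cells the share of Mcm4-positive cells had a ratio of -0.63, with 10 genes lower and 8 higher within them. There the shares of the early, histone, G2/M and low classes had ratios of -0.48, 0.19, -1.03 and 2.02, the median early over histone ratios were 0.019 and 0.47, the histone class median was -0.54, and the early over histone ratios of Pcna and Rfc1 turned to -0.0038 and -0.070. The mean of per-cell CPM gave a summed ratio of -0.092, a median of -0.12 and 1 gene lower. The summed ratio was -0.0043 with only cells of at least 3000 UMIs, -0.0029 with haemoglobin, ribosomal protein and mitochondrial genes left out of the totals, and -0.030 with median-of-ratios size factors. The genes lower and higher within Mcm4-positive cells were 0 and 2 with all barcodes, 1 and 0 with doublets kept, 6 and 3 with thinning to 1500 UMIs, and 0 and 0 without thinning or with Mcm5 in place of Mcm4. With 2 or more Mcm4 UMIs 5 genes were higher and the share ratio was 0.11, and another seed for thinning gave 0 genes lower. With thinning to 1500 UMIs the early over histone ratios of Rrm1, Rrm2 and Tyms were 0.0022, -0.019 and -0.052. Those of Esco2, Fbxo5 and Prim1 were -0.75, -0.31 and 0.48, and with doublets kept that of Rfc3 was 0.38. With the top 20% of cells by each score, the shares of the histone, G2/M and low classes had ratios of 0.16, -0.53 and 0.12, the median early over histone ratios were 0.071 and 0.013, 5 genes were early and 2 late, and Mcm7, Pcna, Pold1 and Chaf1a turned to -0.039, -0.050, -0.14 and -0.090. The genes late by 0.5 were 2 with all barcodes, with doublets kept, without Hist1h1c, Hist1h2bc and Hist1h4i, and with another seed. The cause of these shifts was not tested. Of the remaining main values under alternatives, 126 moved by less than the limits set. The low class median stayed negative throughout, from -0.62 to -0.20; leaving out cells with a neutrophil marker UMI there was added after seeing the data.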

Other observations

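Beyond the set and the reference lists, 13 other genes that averaged at least 20 CPM were higher in the early than in the histone class by at least 0.5 in both libraries. They were chosen here for their values. They included Casp8ap2 (0.68 and 0.64), a nuclear protein needed for histone gene expression, Rnf168 (0.56 and 0.66), a ubiquitin ligase of the double-strand break response, Chek1 (0.65 and 0.51), the replication checkpoint kinase, and Zmynd19 (0.79 and 1.01). Rangrf, a Ran-binding protein, had 0.70 and 0.77.

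Another 13 genes outside the set were higher in Mcm4-positive than in Mcm4-negative cells by at least 0.5 in both libraries, 2 of them from the reference lists. Chek1 had 0.74 and 0.73, and Brca1, of homologous recombination, 0.63 and 0.84. Among divergent partners, Prkdc, with its start 466 bases from that of Mcm4, had early over histone ratios of 0.33 and 0.16, and Ints7, beside Dtl, had 0.43 and 0.55.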
